A study of Mus musculus with 12 samples.

Results

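Messenger RNA of 9 genes for fatty acid handling and for the fat around blood vessels was described in sorted aortic smooth muscle cells (SMCs), by genotype and by aortic segment. The 9 genes are *Lpl*, *Cd36*, *Fabp4*, *Apoe*, *Pparg*, *Cidea*, *Plin1*, *Adipoq*, and *Ucp1*, among 52636 genes in the deposited count table. They were chosen by name, with results of these libraries known, to set genes of fat cells that could be carried over into a sort (*Adipoq*, *Plin1*, *Ucp1*, *Cidea*) beside expression of the SMCs themselves, with *Lpl* as a gene that differs between segments. GFP+ cells were sorted from the ascending aorta and arch (ascending/arch) and from the descending thoracic aorta (descending) of GFPiSMC and Tgfbr1/2iSMCKO mice, which gave 12 libraries in 4 groups of 3. GFPiSMC mice carry *Myh11-CreERT2* and the *mT/mG* reporter, and Tgfbr1/2iSMCKO mice carry the same 2 transgenes with floxed *Tgfbr1* and *Tgfbr2*, the receptors of TGF-β. Mice of both genotypes were male, C57BL/6J, 12 weeks old, and had received tamoxifen for 5 days. The controls have no floxed alleles, so effects of the line and of the deletion cannot be told apart. By the study's methods, mice induced at 11 weeks of age received 2 mg/d and a subgroup induced at 4 weeks received 1 mg/d. The labels of these libraries name both without assigning either to a library. The study describes this sequencing as done 1 week after the deletion, in mature aortas, which is the schedule of induction at 11 weeks. Cre is driven by *Myh11*, so that any cell with *Myh11* activity during tamoxifen, and not only medial SMCs, could be marked.

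Fatty acids reach a cell mainly as triglyceride in lipoproteins, from which lipoprotein lipase (*Lpl*) frees them at the vessel wall. CD36 helps them across the membrane, FABP proteins carry them inside the cell, and PPARγ (*Pparg*), a nuclear receptor activated by fatty acids, turns on genes for their uptake and storage. Perilipin 1 (*Plin1*) and CIDEA coat the lipid droplets of fat cells, adiponectin (*Adipoq*) is secreted by nearly all fat cells, and UCP1 is the uncoupling protein of brown fat, the kind that surrounds the thoracic aorta of mice. Apolipoprotein E (*Apoe*) carries lipid away from cells, macrophages above all.

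Total counts ran from 20467027 to 31392396 per library, from 9208 to 20000 sorted cells. Values are CPM, counts relative to the library total after scaling with trimmed mean of M values (TMM) factors, and 3 counts stand for 0.0966 to 0.146 CPM in a library. Among the SMC genes, *Acta2* ran from 20543 to 31930 CPM and *Tagln* from 3801 to 6187 CPM, and none of 7 SMC markers passed the test for genotype or segment. *Tgfbr1* was 259 ± 29.0 and 211 ± 23.6 CPM (SD, n = 3) in GFPiSMC ascending/arch and descending and 246 ± 48.8 and 257 ± 15.8 CPM in Tgfbr1/2iSMCKO, and *Tgfbr2* was 113 ± 12.8 and 99.3 ± 11.3 against 98.6 ± 3.54 and 79.4 ± 10.2 CPM. Counts over a whole gene include exons that the deletion leaves in place, so they are no check of the labels. On the first principal component (31.9% of the variance) the highest scores were those of both Tgfbr1/2iSMCKO replicate 3 libraries (52.2 and 57.2) and of the descending library of GFPiSMC replicate 2 (27.4), and the ascending/arch library of GFPiSMC replicate 2 was at the other end (−47.1). The fit was repeated without the 3 libraries with the highest scores. In bulk libraries, fewer cells of a type and less RNA per cell cannot be told apart.

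Per kilobase of exon, *Cidea* had the highest level of the 9 genes, with a mean over the 12 libraries of 56.8 CPM per kb. *Fabp4* followed with 18.1, *Apoe* with 7.47, *Pparg* with 4.01, and *Lpl* with 2.17 CPM per kb. *Cd36* (0.382), *Adipoq* (0.316), *Ucp1* (0.0828), and *Plin1* (0.0557 CPM per kb) were below 1 CPM per kb. The genes named as fat cell carry-over therefore lay at opposite ends of this order, with *Cidea* first and *Plin1* last. *Plin1* and *Ucp1* failed the filter on low counts and are given by their counts, which left 7 of the 9 genes in the test.

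**Figure D1:**
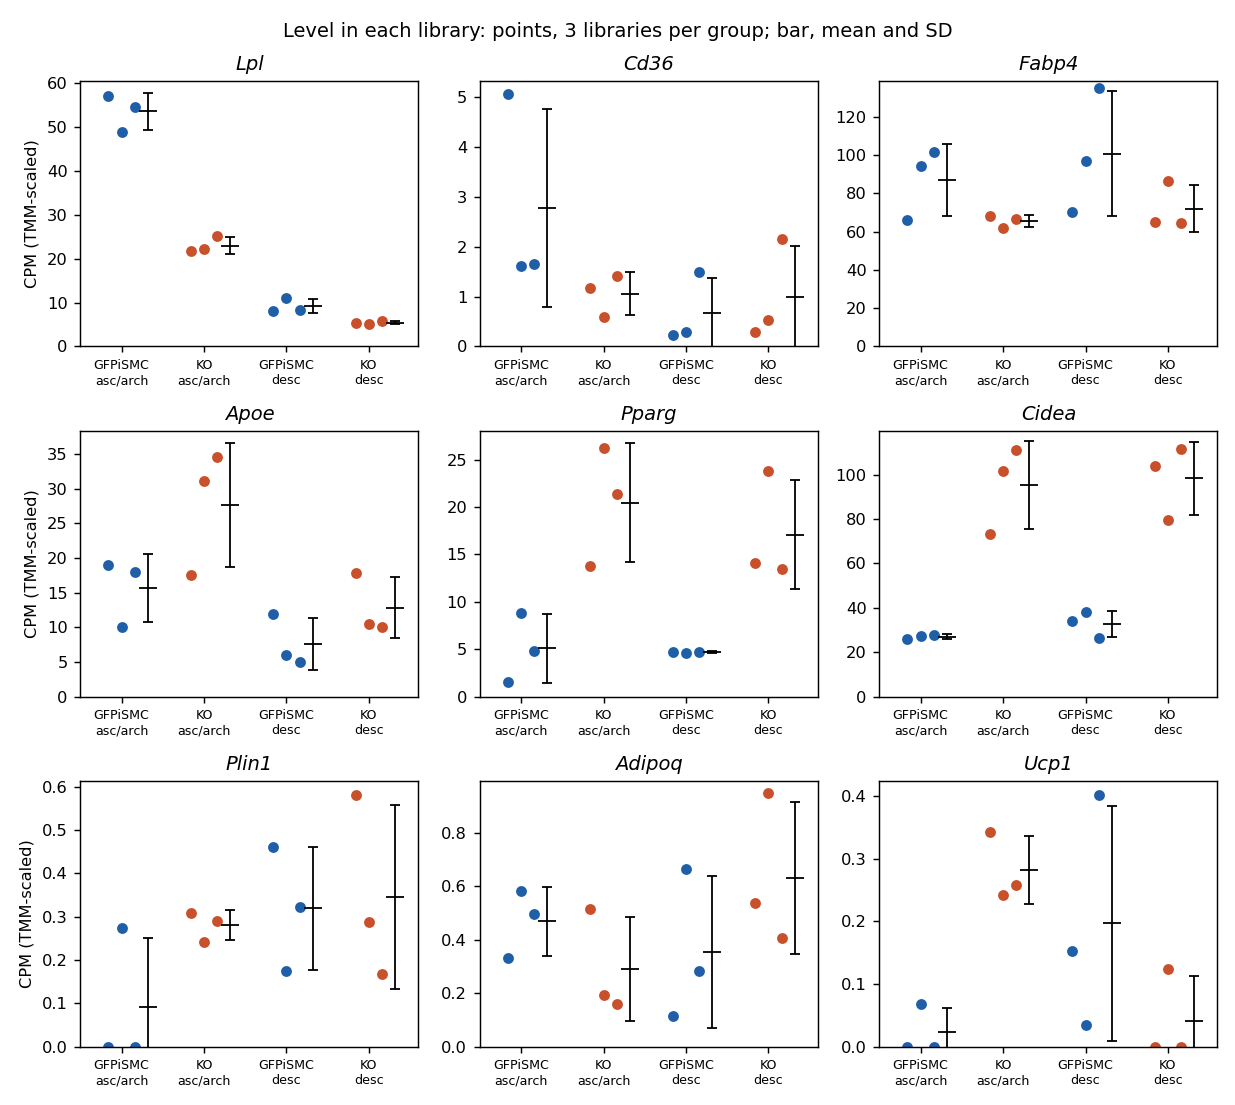
Level of each of the 9 genes in each library, in TMM-scaled CPM (y axis, from 0), by genotype and segment (x axis; KO, Tgfbr1/2iSMCKO; asc/arch, ascending/arch; desc, descending). Points are the 3 libraries of a group in replicate order, and bars are the mean and SD (cut at 0). *Lpl* is lower in each group than in the one to its left, *Pparg* and *Cidea* are higher in every Tgfbr1/2iSMCKO library, and *Plin1*, *Adipoq*, and *Ucp1* stay below 1 CPM.

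*Lpl* (chr8:68880491-68907448, plus strand of GRCm38) was the member with the clearest order over all 4 groups. In GFPiSMC ascending/arch it was 57.2, 48.8, and 54.7 CPM in replicates 1 to 3, and in Tgfbr1/2iSMCKO ascending/arch it was 21.7, 22.1, and 25.1 CPM. In the descending segment it was 8.02, 11.0, and 8.40 CPM in GFPiSMC and 5.38, 5.19, and 5.77 CPM in Tgfbr1/2iSMCKO. No neighboring groups in that order overlapped, and in each segment every Tgfbr1/2iSMCKO library lay below every GFPiSMC library. With the segment in the model, *Lpl* fell by 0.99 on the log2 scale (SE 0.15) in Tgfbr1/2iSMCKO (edgeR quasi-likelihood test, adjusted p = 0.00142). In the ascending/arch segment alone it fell by 1.22 (SE 0.20, adjusted p = 0.00869), and in the descending segment the difference of −0.74 (SE 0.20) did not pass (adjusted p = 0.112). The ascending/arch call was lost when GFPiSMC replicate 1 (adjusted p = 0.0906), GFPiSMC replicate 3 (0.0646), Tgfbr1/2iSMCKO replicate 1 (0.0924), or Tgfbr1/2iSMCKO replicate 2 (0.0553) was left out, with log2 differences from −1.29 to −1.17 over the animals left out in turn. The call over both segments was lost without the segment in the model (−1.14, adjusted p = 0.409).

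*Cidea*, listed with the fat cell genes, had the smallest p of the 7 genes tested. In GFPiSMC it was 25.9, 27.4, and 27.8 CPM in the ascending/arch libraries and 33.9, 37.9, and 26.4 CPM in the descending ones. In Tgfbr1/2iSMCKO the ascending/arch libraries had 73.0, 101, and 111 CPM and the descending ones 104, 79.7, and 111 CPM. All 6 Tgfbr1/2iSMCKO libraries lay above all 6 GFPiSMC libraries, and the segments of a genotype overlapped. *Cidea* rose by 1.70 on the log2 scale (SE 0.15, edgeR adjusted p = 1.14e-05) over both segments, by 1.82 (SE 0.22, adjusted p = 0.000931) in ascending/arch, and by 1.59 (SE 0.21, adjusted p = 0.00217) in descending libraries. With the replicate number as a block and the descending segment fitted alone, that call was lost (1.60, edgeR adjusted p = 0.228). That fit called 14 of 19197 genes. A noncoding transcript on the other strand, *B430212C06Rik*, spans the start of *Cidea* with 0 shared exon bases and had 0 to 82 counts, against 656 to 3453 for *Cidea*.

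*Pparg* (chr6:115360951-115490399, plus strand of GRCm38) showed the largest log2 rise of the 7 genes tested. In GFPiSMC it was 1.58, 8.86, and 4.83 CPM in the ascending/arch libraries and 4.76, 4.56, and 4.74 CPM in the descending ones. In Tgfbr1/2iSMCKO the ascending/arch libraries had 13.8, 26.3, and 21.4 CPM and the descending ones 14.1, 23.8, and 13.5 CPM. The genotypes did not overlap in either segment, while the segments of a genotype overlapped. *Pparg* rose by 1.94 (SE 0.34, edgeR adjusted p = 0.00354) over both segments. Within ascending/arch (2.00, SE 0.50, adjusted p = 0.0791) and within descending (1.87, SE 0.50, adjusted p = 0.103) the differences did not pass. Without GFPiSMC replicate 2 they were 2.68 and 1.85.

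*Pparg* is transcribed from several starts, and counts per gene do not show which was used. RefSeq lists 3 start sites for mouse *Pparg* on GRCm38.p6, the second 1205 bases past the first and the last 59717 bases past the second, and of the 250 bases before each start those outside annotated *Pparg* exons are given here, on the plus strand, because the rise in counts could come from any of them. The windows lie at chr6:115360894-115360950, chr6:115362099-115362291, and chr6:115421816-115422065. Capitals mark CAGAC on either strand, the short sequence bound by SMADs, the factors downstream of the deleted receptors, and AGGTCA on either strand, the core site of nuclear receptors such as PPARγ.
Pparg start 1: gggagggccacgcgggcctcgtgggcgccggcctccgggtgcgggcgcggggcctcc
Pparg start 2: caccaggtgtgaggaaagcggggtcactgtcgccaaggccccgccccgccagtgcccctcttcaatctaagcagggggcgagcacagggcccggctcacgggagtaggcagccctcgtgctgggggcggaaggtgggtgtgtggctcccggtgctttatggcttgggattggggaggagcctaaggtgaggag
Pparg start 3: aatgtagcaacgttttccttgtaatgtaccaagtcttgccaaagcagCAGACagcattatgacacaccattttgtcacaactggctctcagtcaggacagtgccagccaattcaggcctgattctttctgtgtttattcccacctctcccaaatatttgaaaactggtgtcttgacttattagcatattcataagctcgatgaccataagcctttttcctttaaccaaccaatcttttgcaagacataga
The printed stretches hold 1 CAGAC, before start 3, and 0 AGGTCA. The windows of 250 bases differed in composition, with 82.4%, 63.6%, and 40.8% G and C before starts 1, 2, and 3. Over whole windows of 250 bases, CAGAC occurred before 1 of the 3 *Pparg* starts and in 42.2% of 32851 windows of all genes, and AGGTCA before 2 of the 3 and in 14.0% of windows. The longer AGCCAGACA, which contains CAGAC, occurred in 0.301% of windows, and AGGTCANAGGTCA, made of 2 copies of AGGTCA, in 0.0335%. Neither was found in the 10 windows listed for 6 of the 9 genes (*Cd36*, *Pparg*, *Apoe*, *Plin1*, *Adipoq*, and *Ucp1*). A match describes the letters and is no evidence of binding.

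*Apoe*, *Fabp4*, and *Cd36* did not pass the test for genotype. *Apoe* was 19.0, 10.1, and 18.1 CPM in GFPiSMC ascending/arch, 17.6, 31.1, and 34.5 CPM in Tgfbr1/2iSMCKO ascending/arch, 11.9, 6.06, and 4.94 CPM in GFPiSMC descending, and 17.9, 10.5, and 10.1 CPM in Tgfbr1/2iSMCKO descending. The genotypes overlapped in each segment, and the log2 difference was 0.78 (SE 0.27, edgeR adjusted p = 0.143). *Fabp4*, a fatty acid carrier of fat cells, endothelium, and macrophages, ran from 65.8 to 135 CPM in GFPiSMC and from 61.8 to 86.1 CPM in Tgfbr1/2iSMCKO, a log2 difference of −0.45 (SE 0.16, adjusted p = 0.168) that passed without GFPiSMC replicate 1 (−0.64, adjusted p = 0.0366). *Cd36* ran from 0.230 to 5.06 CPM, with its highest value in the ascending/arch library of GFPiSMC replicate 1. Its log2 difference was −0.43 (SE 0.67, adjusted p = 0.859), with −1.38 (SE 0.85) in ascending/arch and 0.60 (SE 0.86) in descending libraries. Over both segments the value ran from −1.20 (without Tgfbr1/2iSMCKO replicate 3) to −0.07 (without Tgfbr1/2iSMCKO replicate 2) with animals left out in turn, and in ascending/arch it was −0.61 without GFPiSMC replicate 1. The descending value became −0.69 without Tgfbr1/2iSMCKO replicate 3 and −1.05 without the 3 libraries highest on the first component.

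For *Adipoq*, *Plin1*, and *Ucp1* the libraries held few counts in every group. *Adipoq* had 9, 17, and 12 counts in GFPiSMC ascending/arch and 15, 4, and 5 in Tgfbr1/2iSMCKO ascending/arch, and 3, 19, and 7 against 13, 23, and 12 counts in descending libraries. The log2 difference of *Adipoq* was 0.08 (SE 0.54, edgeR adjusted p = 0.973), and its sign changed when 1 animal was left out. *Plin1* had 0 to 14 counts, with 0 in 2 libraries, and *Ucp1* had 0 to 10 counts, with 0 in 4 libraries. *Ucp1* counts were 0, 2, and 0 in GFPiSMC and 10, 5, and 8 in Tgfbr1/2iSMCKO ascending/arch. In descending libraries its counts were 4, 1, and 10 in GFPiSMC and 0, 3, and 0 in Tgfbr1/2iSMCKO. The 3 genes together had 9 to 34 counts per library, and their summed level of 0.330 to 1.36 CPM overlapped between the 4 groups.

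Over both segments, 3 of the 7 genes tested passed an adjusted p under 0.05, *Pparg* and *Cidea* higher and *Lpl* lower in Tgfbr1/2iSMCKO. Of 22320 genes tested, 1123 passed (5.03%), 721 of them lower (3.23%) and 402 higher (1.8%) in Tgfbr1/2iSMCKO. Scaling by library size alone turned that balance, with 505 lower and 699 higher. With a change of more than 2-fold required as well, *Pparg* and *Cidea* remained past the threshold and *Lpl* lay just outside it, against 596 of all genes (2.67%). Without the 3 libraries highest on the first component, the same 3 genes passed in the same directions (edgeR adjusted p = 0.0102 for *Lpl*, 0.0286 for *Pparg*, and 0.000172 for *Cidea*). In ascending/arch 2 of the 7 genes passed (*Lpl* and *Cidea*), against 1.41% of all genes, and in descending 1 of 7 (*Cidea*), against 1.72%. The difference of the genotype effect between segments passed for 0 of the 7 genes and 0% of all genes by edgeR (659 genes at an unadjusted p under 0.05). That difference was 0.48 (SE 0.28, adjusted p = 1.00) on the log2 scale for *Lpl*, −0.23 (SE 0.30) for *Cidea*, and −0.14 (SE 0.68) for *Pparg*. Since the 9 genes were chosen with results of these libraries known, the count is a description of these members.

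**Figure D2:**
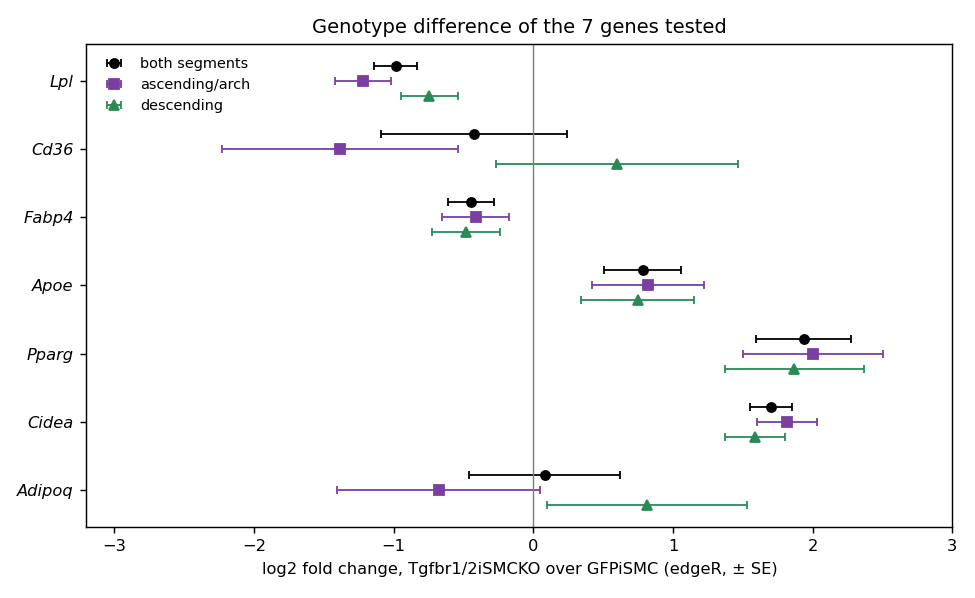
Log2 fold change of Tgfbr1/2iSMCKO over GFPiSMC (x axis) for the 7 genes tested (y axis), over both segments (black circles), in ascending/arch (purple squares), and in descending libraries (green triangles). Bars are SE from edgeR. *Pparg*, *Cidea*, and *Lpl* lie on one side of 0 in all 3 comparisons, and *Cd36* and *Adipoq* have opposite signs in the segments, with wide bars.

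The segment values of the members were known when they were listed and are given without a test. The difference of an animal is its descending minus its ascending/arch library in log2(CPM + 0.5), with libraries of the same genotype and number taken as one animal. *Lpl* was lower in the descending segment in 6 of 6 animals, with differences of −2.76, −2.10, and −2.63 in GFPiSMC and −1.92, −1.99, and −2.03 in Tgfbr1/2iSMCKO (mean −2.24 ± 0.36, SD, n = 6). All 6 ascending/arch libraries lay above all 6 descending libraries. *Apoe* was lower in 5 of 6 animals (−1.05 ± 0.73) and *Cd36* in 5 of 6 (−0.86 ± 1.23), and for both the segments overlapped. *Cidea* (0.15 ± 0.35), *Pparg* (−0.05 ± 0.78), and *Fabp4* (0.15 ± 0.23) had both signs among the animals, and so did *Adipoq* (0.15 ± 0.55), *Plin1* (0.29 ± 0.49), and *Ucp1* (−0.08 ± 0.61). Among all genes, 0.797% passed between segments. The summed level of 8 markers of fibroblasts, which lie in the adventitia, was 115 to 166 and 84.9 to 245 CPM in GFPiSMC and Tgfbr1/2iSMCKO ascending/arch, and 58.3 to 74.7 and 19.5 to 53.2 CPM in descending libraries. Of 7 fibroblast markers tested, *Lum*, *Dcn*, and *Cd34* were called lower in the descending segment (log2 differences of −4.30, −2.30, and −1.35, edgeR adjusted p = 0.000344, 0.0418, and 0.0201) and 0 higher. *Serpinf1* had the opposite sign (0.80, adjusted p = 0.602), and the other 3 had negative differences that did not pass. All 7 were at an unadjusted p under 0.05 by edgeR. The part of such cells in the segment difference of *Lpl* was not tested.

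**Figure D3:**
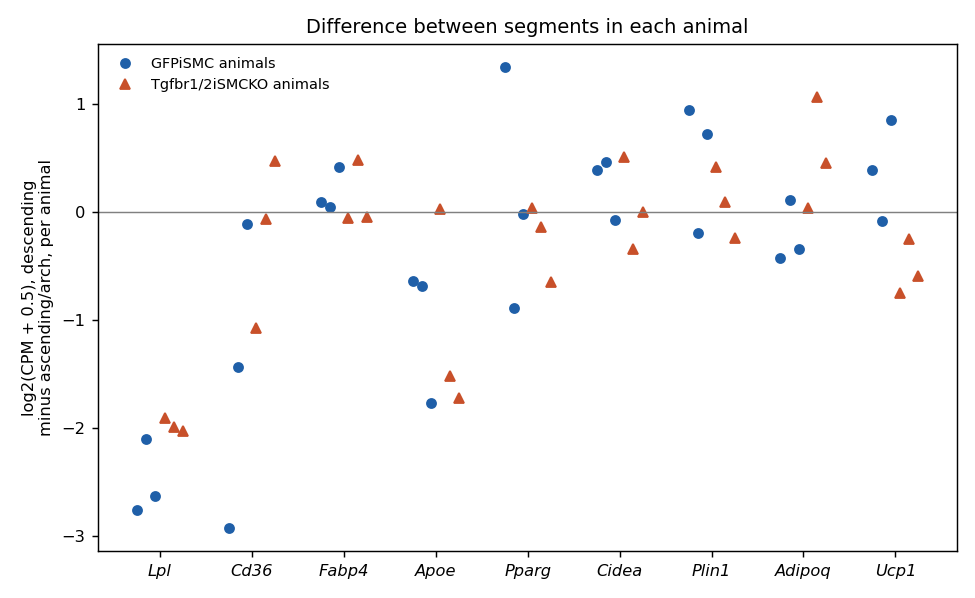
Difference between the segments in each animal, as log2(CPM + 0.5) in the descending minus the ascending/arch library (y axis), for the 9 genes (x axis). Circles are the 3 GFPiSMC and triangles the 3 Tgfbr1/2iSMCKO animals, in replicate order. The 6 values of *Lpl* lie between −2.76 and −1.92, and every other gene has values on both sides of 0.

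*Lpl* and *Cidea* were above the sum of 3 fat cell genes, *Adipoq*, *Plin1*, and *Ucp1*, in every library. Counts of *Lpl* were 3.82 to 173 times, and those of *Cidea* 26.2 to 194 times, the summed counts of *Adipoq*, *Plin1*, and *Ucp1*. The library with the highest *Lpl* (57.2 CPM, GFPiSMC replicate 1 ascending/arch) had the lowest sum of the 3 genes (0.330 CPM), and the library with the highest *Cidea* (111 CPM, Tgfbr1/2iSMCKO replicate 3 descending) had a sum of 0.573 CPM. Of 22 other fat cell markers, *Cox8b*, which brown fat cells make in large amounts, had 0 counts in all 12 libraries, which allows up to 0.146 CPM. *Cfd* (adipsin), *Cidec*, *Retn*, *Adig*, and *Elovl3* reached at most 0.248, 0.340, 0.440, 0.172, and 0.421 CPM. The 2 brown fat markers with the highest means were *Prdm16*, a transcriptional regulator, at 66.6 to 125 CPM and *P2rx5*, an ATP receptor, at 7.04 to 31.3 CPM. Of the general and white fat markers, *Thrsp*, a regulator of lipid synthesis, was highest, at 6.41 to 21.9 CPM, followed by *Gpd1*, which makes glycerol phosphate, at 0.804 to 8.67 CPM. *Thrsp* was lower in the descending segment (log2 difference of −0.95, adjusted p = 0.0238), and 0 of the 14 tested markers of both fat lists were called for genotype (2 at an unadjusted p under 0.05). All 22 summed to 111 to 177 CPM in GFPiSMC and 100 to 169.7 CPM in Tgfbr1/2iSMCKO libraries. That sum was above *Lpl* and above *Cidea* in every library. The other fat cell markers, without *Prdm16*, *P2rx5*, and *Thrsp*, summed to 9.24 to 17.7 CPM in GFPiSMC libraries. In Tgfbr1/2iSMCKO libraries they summed to 14.8 to 20.6 CPM, and these ranges overlapped. This smaller sum was below *Cidea* in every library. It was below *Lpl* in every ascending/arch library and above *Lpl* in every descending library.

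**Figure D4:**
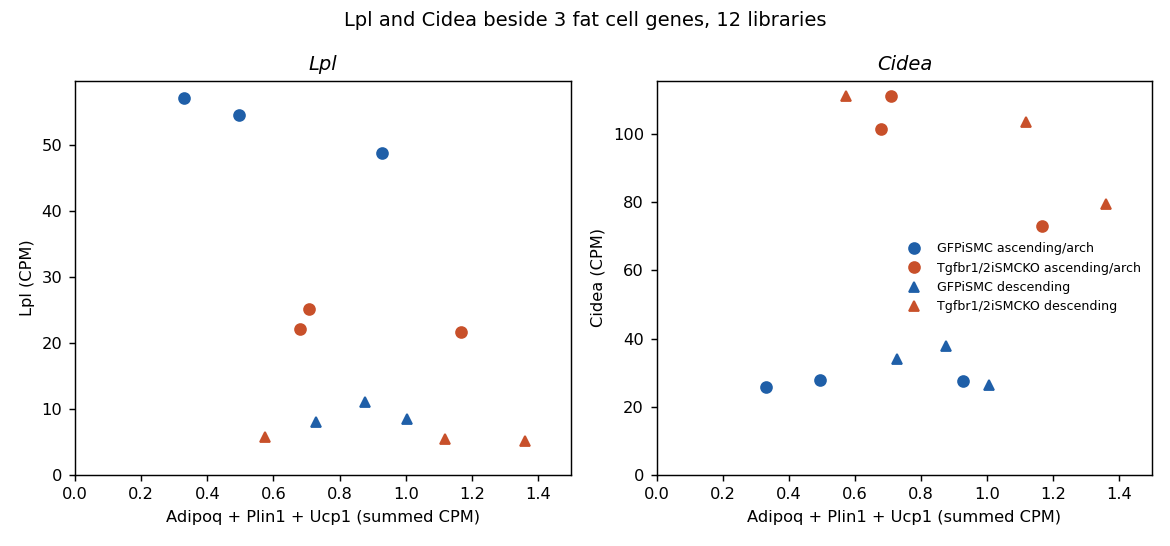
*Lpl* (left) and *Cidea* (right) in TMM-scaled CPM (y axes, from 0) against the summed CPM of *Adipoq*, *Plin1*, and *Ucp1* (x axes), 1 point per library. Blue is GFPiSMC, orange Tgfbr1/2iSMCKO, circles ascending/arch, and triangles descending. Libraries of one group keep together in *Lpl* and those of one genotype in *Cidea*, over sums from 0.330 to 1.36 CPM.

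The members were set beside 81 other genes of fatty acid handling in 6 lists. Of these, 79 were tested, and 7 rose in Tgfbr1/2iSMCKO and 0 fell (8.86%, against 5.03% of all genes). Their median log2 difference was 0.22 against 0.04 over all 22320 genes. Scaling by library size alone moved the median of all genes to 0.16. It called 11 of the 79, all higher, against 1204 of 22320 genes, 699 of them higher. DESeq2 called 13 of 76, of which 3 were lower, against 1915 of 18958 genes. The share of all genes depends on the filter for low counts. With a mean of at least 50 counts required, 8 of 69 of these genes were called (1 lower), against 1157 of 12698 genes. The lists were chosen with earlier results of these data known. Of 12 transcriptional regulators tested, 2 rose and 0 fell (median 0.24). *Ppargc1a*, the coactivator of PPARγ that drives mitochondrial genes, was 10.5 ± 4.62 and 5.74 ± 0.588 CPM (SD, n = 3) in GFPiSMC ascending/arch and descending and 27.6 ± 2.25 and 22.5 ± 6.27 CPM in Tgfbr1/2iSMCKO (log2 1.68, SE 0.23, edgeR adjusted p = 0.000669). *Klf15*, a transcription factor of fuel use in muscle, ran from 13.8 to 16.6 and from 15.7 to 20.5 CPM in GFPiSMC ascending/arch and descending and from 30.7 to 38.1 and from 24.3 to 42.4 CPM in Tgfbr1/2iSMCKO (log2 1.05, SE 0.17, adjusted p = 0.00192). The LXR gene *Nr1h2* was the regulator with the highest mean (70.5 CPM) and was not called (log2 0.60, adjusted p = 0.390).

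Of 19 oxidation genes tested, 3 rose and 0 fell, against 1.8% of all genes higher, with a median log2 difference of 0.37 against 0.04 over all genes (0.16 by library size alone). *Hadh*, an enzyme of mitochondrial β-oxidation, was 111 ± 8.63 and 121 ± 8.46 CPM in GFPiSMC ascending/arch and descending and 192 ± 5.27 and 190 ± 14.3 CPM in Tgfbr1/2iSMCKO (SD, n = 3; log2 0.72, SE 0.09, edgeR adjusted p = 0.000289). *Acadl* (0.46, adjusted p = 0.0429), a long-chain acyl-CoA dehydrogenase, and *Eci1* (0.42, adjusted p = 0.0367), an enoyl-CoA isomerase, rose less. The oxidation genes with the highest means, *Etfa* (404 CPM, adjusted p = 0.0520) and *Acadm* (247 CPM, adjusted p = 0.456), were not called.

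In the list of activation and synthesis, 1 of 15 genes rose (median log2 difference of −0.03), *Scd1*, which makes monounsaturated fatty acids, from 75.8 ± 4.75 and 56.6 ± 2.63 to 103 ± 11.1 and 115 ± 8.05 CPM (log2 0.73, SE 0.13, edgeR adjusted p = 0.00333), while *Elovl1* and *Scd2*, with the highest means of 127 and 123 CPM, were not called. Of 8 genes tested for lipoproteins and lipid efflux (median 0.23), 1 rose, *Abcg1*, an exporter of cholesterol to high-density lipoprotein, with 4.47 ± 1.07 and 2.69 ± 0.910 CPM in GFPiSMC and 24.6 ± 9.45 and 7.46 ± 3.99 CPM in Tgfbr1/2iSMCKO ascending/arch and descending (log2 1.97, SE 0.34, adjusted p = 0.00317). *Lrp1* and *Lipa*, the highest of that list at 90.0 and 79.6 CPM, were not called, and *Apoc1* had 0 counts in all libraries. Uptake and transport (9 tested, led by *Vldlr* at 199 CPM and *Fabp3* at 62.3 CPM) and storage and lipolysis (16 tested, led by *Plin4* at 99.4 CPM and *Mgll* at 83.3 CPM) had 0 genes called by edgeR, with 3 and 1 at an unadjusted p under 0.05. *Plin4*, a lipid droplet protein of fat cells and muscle, ranged from 4.19 to 212 CPM across libraries. *Gpihbp1*, the endothelial anchor of lipoprotein lipase, had 0 to 22 counts and failed the filter. Between segments, 0 of the 79 genes were called by edgeR (5 at an unadjusted p under 0.05), against 178 of 22320 genes. DESeq2 called 2 of 75, against 375 of 18039 genes.

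**Figure D5:**
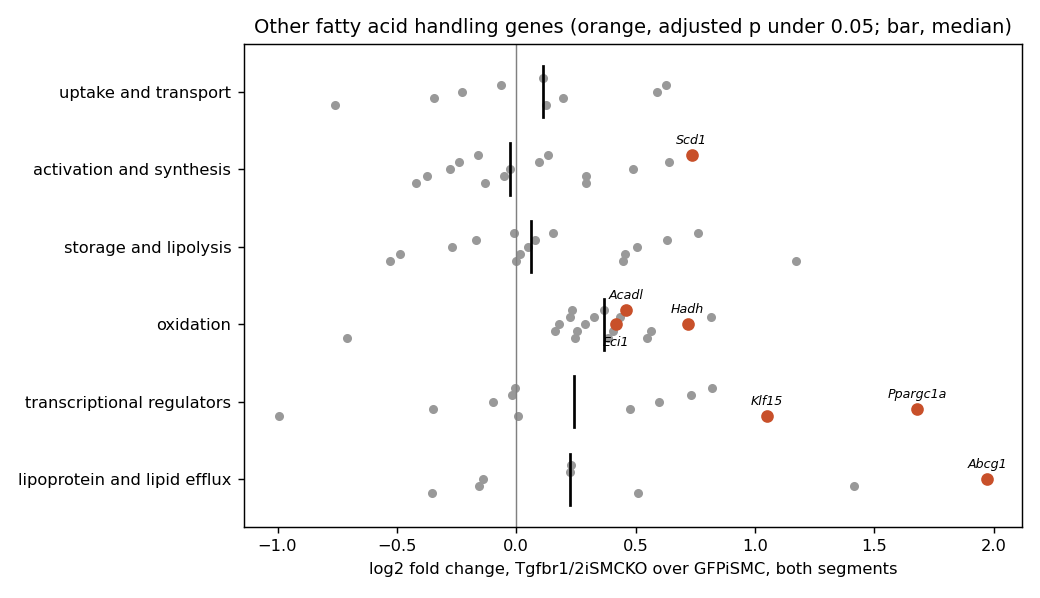
Log2 fold change of Tgfbr1/2iSMCKO over GFPiSMC over both segments (x axis) for 79 genes of fatty acid handling in 6 lists (y axis). Each point is a gene (its height within a list only spreads the points), black bars are list medians, and orange points with names passed an adjusted p under 0.05. The 7 named genes lie above 0.

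Markers of other cells were low beside SMC genes but were not all at 0. *Pecam1* ran from 44.4 to 95.7 CPM across libraries, whereas *Cdh5*, a defining endothelial gene, reached at most 2.71 CPM. Of 10 endothelial markers, *Erg* fell (log2 −1.13, edgeR adjusted p = 0.00652) and *Cdh5* rose (2.97, adjusted p = 0.0250). The median log2 difference of the 10 was 0.75, with 3 at an unadjusted p under 0.05 by edgeR. The part of endothelial cells in the values of *Fabp4* was not tested. The 12 macrophage markers summed to 8.03 to 20.5 CPM in GFPiSMC and 13.3 to 30.8 CPM in Tgfbr1/2iSMCKO libraries. *Cd14* (mean 4.72 CPM) and *Csf1r* (4.34 CPM) were highest. Of 10 tested, 0 were called for genotype by edgeR (3 at an unadjusted p under 0.05). Their median log2 difference was 0.74 (range −0.03 to 3.58), against 0.04 over all genes. Macrophages also make *Apoe*, *Lpl*, *Cd36*, *Fabp4*, *Pparg*, and *Abcg1*, and their part in the differences of those genes was not tested. The fibroblast sum overlapped between genotypes in ascending/arch, but in descending every Tgfbr1/2iSMCKO library (19.5 to 53.2 CPM) lay below every GFPiSMC library (58.3 to 74.7 CPM), and the part of such cells in the genotype difference of *Lpl* was not tested. Of that list *Serpinf1* fell in Tgfbr1/2iSMCKO (log2 −1.58, adjusted p = 0.00646). The 5 mesothelial markers, led by *Wt1* (mean 0.970 CPM) and *Upk3b* (0.723 CPM), summed to at most 4.18 CPM, with 0 called (1 at an unadjusted p under 0.05).

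The genes whose log2(CPM + 0.5) went most closely with *Lpl* over the 12 libraries, out of 11149 genes averaging 100 counts or more per library, were *Brip1* (r = 0.971), *Serpinb6b* (0.966), *Thbd* (0.962), *Mrps6* (0.947), and *Mfap2* (0.944). *Thbd*, thrombomodulin, averaged 151 CPM over ascending/arch and 31.7 CPM over descending libraries, and *Brip1*, a DNA helicase, 37.3 and 5.52 CPM. *Mfap2*, a microfibril protein of the elastic matrix, averaged 57.4 and 19.6 CPM. For *Cd36*, among 11150 genes by the same minimum, the closest were *Arhgap31* (r = 0.896), *4933439C10Rik* (0.833), *Prss12* (0.813), *Cdh18* (0.812), and *Ppp3cc* (0.797). For *Adipoq*, searched among all 22319 other genes tested because its own counts are low, they were *Olfr1171-ps1* (0.912), *9430073C21Rik* (0.878), *Gm26953* (0.868), *Slc17a3* (0.859), and *Gm26635* (0.851), all below 3 CPM in every library. These are descriptions over libraries that share animals, groups, and depth.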

How the data were processed

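Libraries were made by the authors with a low-input kit that does not mark strand. By the study's methods, reads were trimmed with Trim Galore 0.5.0, aligned to GRCm38 (mm10) with HISAT2 2.1.0, and quantified on GENCODE models with StringTie 1.3.3b. The deposited values are estimated counts per gene, whole numbers without normalization between libraries. How StringTie's output became counts is not given in the sources used here. Reads over bases that a gene shares with an antisense partner cannot be told apart. In GENCODE M21, *Cidea* and *Pparg* share 0 exon bases with theirs. Symbols and exon lengths came from GENCODE M21, and promoter sequences from RefSeq on GRCm38.p6.

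Counts were tested with edgeR 4.0.16 (R 4.3.3): low counts removed by filterByExpr with the 4 groups, scaling by TMM, quasi-likelihood fits of genotype plus segment or of 4 group means, and Benjamini-Hochberg adjustment over 22320 genes, with calls at an adjusted p under 0.05. The SE was taken as the size of the log2 difference divided by the root of F. The steps were tested on simulated counts drawn for each library on its own. That test does not cover libraries of one animal that deviate together. Levels between genes used union exon length. The members, gene lists, and naming rule were chosen with earlier results of these data known. The text names the members, the 2 most abundant genes of each list, its called genes, list genes at 0, and the 5 closest genes to *Lpl*, *Cd36*, and *Adipoq*. *Gpihbp1*, *Cfd*, *Cidec*, *Retn*, *Adig*, *Elovl3*, and *Tgfbr1* and *Tgfbr2* were added after their values were seen. The 6 fatty acid lists and 7 marker lists (brown fat, general and white fat, endothelium, macrophages, fibroblasts, mesothelium, SMCs) are described by counts.

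Same-numbered libraries of a genotype were treated as one animal, which the labels do not state outright. After removal of group means, their correlation was 0.141, −0.201, and 0.0325 in GFPiSMC and 0.0600, 0.351, and 0.621 in Tgfbr1/2iSMCKO, so the fit over both segments treats as separate some libraries that deviate together, and counts summed per animal were an alternative. No label says that replicates differ in sequencing batch, and no 2 libraries were identical. Other alternatives were DESeq2 1.42.0, RLE or library size scaling, other filters, no segment term, a replicate block, each segment fitted alone, and each animal left out in turn. Leaving out the 3 libraries highest on the first principal component was chosen after the data were seen. The floor of 3 counts covers counting error only, whereas SEs and SDs include the spread between libraries. Plots were made in Python 3.11.15 with matplotlib 3.10.9.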

Additional observations from a re-analysis of the deposited data

How the results depend on the processing

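Over both segments, *Lpl* (adjusted p 1.42e-08 to 0.409), *Pparg* (4.96e-07 to 0.0338), and *Cidea* (6.2e-22 to 0.00308) kept their direction under 15 alternatives each, and the only call lost was that of *Lpl* without the segment term. With counts summed per animal they were called with adjusted p = 0.0255, 0.0323, and 0.00308. The number of members called stayed between 2 (no segment term, 1087 of 22320 genes called) and 4 (without GFPiSMC replicate 1, 642 of 23476). In ascending/arch it was 2, against 315 of 22320 genes. With animals left out in turn it was 1 to 2, against 128 to 240 genes. In descending it was 1, against 385 of 22320 genes, and DESeq2 called 3 (*Lpl*, *Pparg*, and *Cidea*), against 869 of 18044. DESeq2 also called *Pparg* in ascending/arch (adjusted p = 0.00244), where it called 839 of 18965 genes. Between segments, DESeq2 called 2 of 75 pathway genes, against 375 of 18039 genes, where edgeR called 0 pathway genes in every other setting. The replicate numbers are shared across genotypes, and after removal of group means same-numbered libraries of the 2 genotypes had correlations of −0.485 to 0.177. With 3 libraries per group, these values cannot tell whether such libraries share more than the replicate number. With that number as a block and each segment fitted alone, 1 member was called in ascending/arch (*Cidea*), against 104 of 19762 genes. In descending 0 members were called (*Cidea* at 1.60, edgeR adjusted p = 0.228), against 14 of 19197 genes. Over both segments the block left the members' count at 3 and the calls over all genes at 994. *Adipoq* changed sign over both segments with animals left out in turn (−0.26 to 0.50, with −0.26 without GFPiSMC replicate 1, −0.10 and −0.03 without Tgfbr1/2iSMCKO replicates 1 and 2), and so did *Cd36* in descending libraries (−0.69 to 1.95 with animals left out in turn, with −0.69 and −1.05 without Tgfbr1/2iSMCKO replicate 3 and without the 3 libraries highest on the first component). Of the 79 pathway genes, 5 to 8 were called for genotype with animals left out in turn, against 7 in the main fit. DESeq2 called 13 of 76, and library size alone 11 of 79. The calls over all genes were 622 to 1066 with animals left out, 1123 in the main fit, 1915 by DESeq2, and 1204 with library size alone. By edgeR, 1 of the called pathway genes was lower without Tgfbr1/2iSMCKO replicate 3. The same number was lower without the 3 libraries highest on the first component, and with a mean of at least 50 counts required. The causes were not tested. Depth limits *Cd36*, *Adipoq*, *Plin1*, and *Ucp1*, with 0 to 138 counts per library, in which the differences between genotypes had wide SEs or no test.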
